A study of Mus musculus with 7 samples.

Results

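The hippocampus of wild-type mice (WT) was compared with the cortex of the same animals. Wells were taken by genotype, injection and region as their column names give them: WT mice injected with PBS that had a hippocampus well and a cortex well, which were 8 of the 24 mice and 16 of the 47 wells sequenced. A ninth WT mouse had a cortex well alone and was not used. The same difference was also measured in 15 mice labelled FAD, carriers of familial Alzheimer's disease transgenes, which had received a control IgG or the CD38 treatment, so that genotype and injection differ together between FAD and WT mice. The labels used here do not state the strain, the age, the transgenes or the way the regions were dissected. Whole tissue was profiled with mcSCRB-seq, an RNA-seq method that tags the 3' ends of transcripts and gives each well a barcode, so levels are given as CPM (counts scaled to a common library size) and are not compared between genes.

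The hippocampus is a folded sheet of archicortex beside the neocortex. Its granule cells in the dentate gyrus receive the entorhinal input and send mossy fibres to CA3 pyramidal cells, which project on to CA1, and CA2 lies between them. The neocortex is built of layers whose pyramidal cells differ in their targets: upper layers connect cortical areas, layer 4 receives the thalamus, layer 5 projects to brainstem and striatum, and layer 6 back to the thalamus. Both regions hold the same broad classes of glutamatergic neurons, interneurons, glia and vessels, and differ in the subtypes.

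Total counts per well were 2420206 to 4771349 in hippocampus and 2078974 to 4949220 in cortex, and the 2 wells of each mouse were sequenced in 1 library pool. The hippocampus of WT mouse 2756 stood apart: ribosomal RNA and ribosomal RNA-like genes took 32.1% of its counts, against 4.59% to 7.27% in the other 7 hippocampi and 4.55% to 9.13% in the 8 cortices. The cortex of this mouse had the smallest total of all these wells and the highest share of the 8 cortices, 9.13%. For the lists reported below, counts of members without this mouse are given where a count changed by over 1.5 times, and for some other lists. Levels of genes of neighbouring tissue and blood stand beside the results they move with.

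The 4 genes that mark the regions separated the wells without overlap. C1ql2, a secreted C1q-like protein of dentate granule cells that organises mossy fibre synapses, stood at 66.3 to 121 CPM (median 83.6) in hippocampus, against 0.372 to 3.52 CPM (median 1.98) in cortex, a log2 difference of 5.35 ± 0.21 (SE; adjusted p = 3.34e-14). Spink8, a Kazal-type protease inhibitor gene of CA1 pyramidal cells, was at 47.5 to 166 CPM (median 131) in hippocampus, against 3.91 to 7.64 CPM (median 4.44) in cortex (4.63 ± 0.16, adjusted p = 5.83e-15). Its lowest hippocampus was that of mouse 2756. Rspo1, an R-spondin that enhances Wnt signalling, was at 0.922 to 2.52 CPM (median 2.13) in hippocampus, against 13.7 to 22.7 CPM (median 19.4) in cortex (-3.23 ± 0.18, adjusted p = 5.77e-12). Myl4, an atrial myosin light chain that is also a marker of neocortical neurons, was at 3.46 to 9.91 CPM (median 8.15), against 57.7 to 86.7 CPM (median 64.1) in cortex (-3.13 ± 0.13, adjusted p = 1.24e-13). These genes were chosen because they mark the regions, so their separation is no independent check of the labels. In whole tissue, fewer cells of a type and less RNA per cell cannot be told apart, here and in every result that follows.

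**Figure D1:**
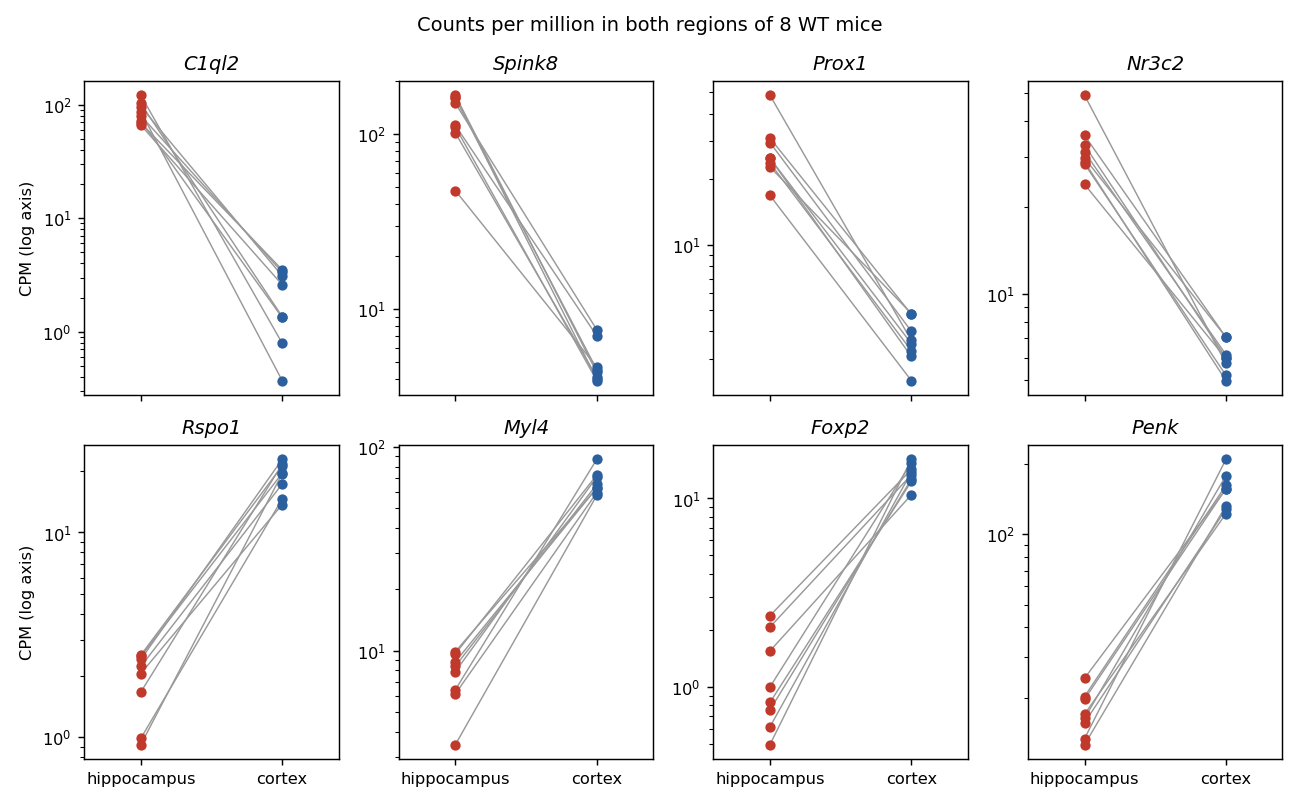
CPM on a log axis of 8 genes in hippocampus (left, red) and cortex (right, blue); each point is 1 well and each line joins the 2 wells of 1 WT mouse. In each panel the 8 hippocampi lie all above or all below the 8 cortices, with C1ql2 at 66.3 CPM or more in hippocampus and at 3.52 CPM or less in cortex.

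Of the 4 marker genes, 3 had an entry in the RefSeq promoter table (build GRCm38.p6). The 250 bases before the transcription start are shown for C1ql2 as the marker of hippocampus with the larger difference, and for Myl4 as a marker of cortex, both on the plus strand, at chr1:120340332-120340581 and chr11:104550413-104550662. Capitals mark a match to the motif AGAACA, a steroid receptor half-site. No other match was found in these windows on either strand, neither to AGAACA nor to the E-box CAGATG, nor to the palindromic E-box CAGCTG, nor to the TATA box with the letters TATAAA. The window of Rspo1, the cortex marker with the larger difference, held no match to any of these motifs and is not shown.
C1ql2: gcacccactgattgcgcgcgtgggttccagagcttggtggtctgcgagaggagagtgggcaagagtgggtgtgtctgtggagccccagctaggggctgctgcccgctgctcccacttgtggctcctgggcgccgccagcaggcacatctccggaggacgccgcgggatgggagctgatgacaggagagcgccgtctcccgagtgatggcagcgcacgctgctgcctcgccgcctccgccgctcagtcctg
Myl4: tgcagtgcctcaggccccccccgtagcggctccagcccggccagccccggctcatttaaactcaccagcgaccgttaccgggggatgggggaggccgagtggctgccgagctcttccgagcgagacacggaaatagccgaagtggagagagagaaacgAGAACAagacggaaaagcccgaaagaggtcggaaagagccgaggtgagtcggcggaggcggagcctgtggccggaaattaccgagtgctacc
Over the genes with a promoter in the table, CAGATG was in 17.8% of 90 genes more than 2-fold higher in hippocampus, in 15.6% of 90 more than 2-fold lower, in 9.66% of 9225 genes tested and in 14.5% of all 27025 promoters. For AGAACA these shares were 5.56%, 12.2%, 10.5% and 16.2%. They were 12.2%, 13.3%, 11.4% and 12.8% for CAGCTG, and 11.1%, 12.2%, 6.04% and 13.0% for TATAAA. A match is a run of letters in this window and no more.

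Across all genes, 12454 of the 20859 listed were tested. By edgeR's quasi-likelihood test with each mouse as a block, 1780 genes (14.3%) were higher in hippocampus and 1678 (13.5%) were lower at an adjusted p under 0.05, and the median log2 difference was -0.01. Without mouse 2756 the counts were 1923 and 1926. Most differences were small: 1858 of the 3458 called genes (53.7%) differed by less than 1.5-fold, 974 by 1.5 to 2-fold, 493 by 2 to 4-fold and 133 by 4-fold or more. In a test against a 2-fold change, 131 genes (1.05%) were higher and 144 (1.16%) were lower. The wells of the 2 regions did not overlap for 367 genes (2.95%) with hippocampus above and for 405 (3.25%) with cortex above. Of the called genes, 1990 had the same sign in all 8 mice.

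**Figure D2:**
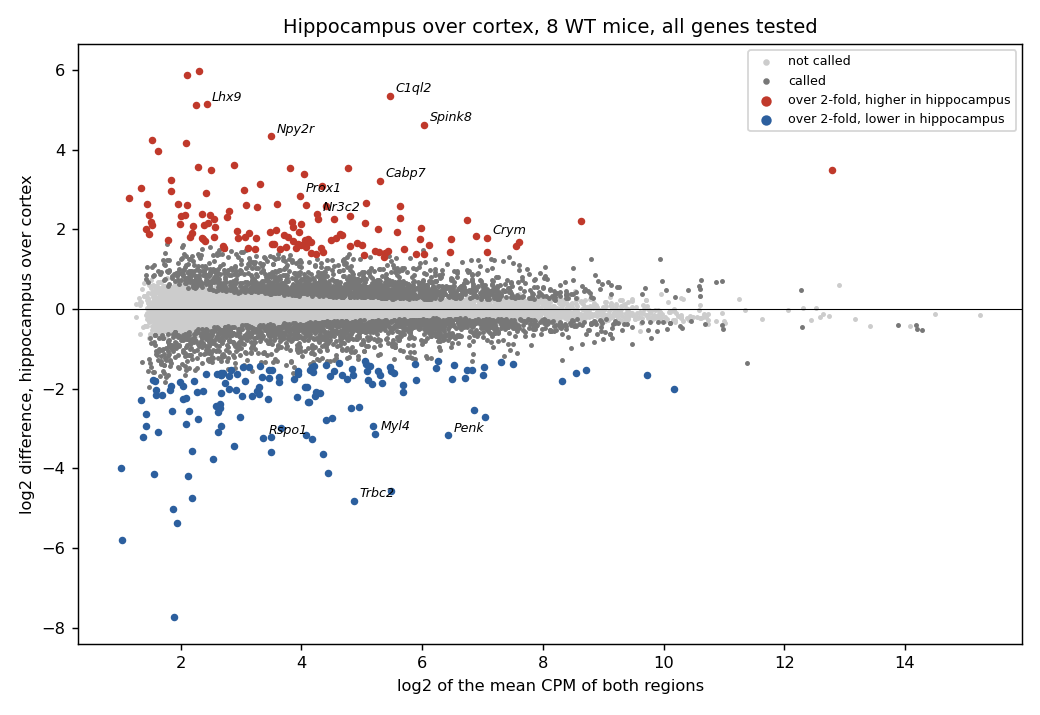
Log2 difference of hippocampus over cortex (vertical) against the log2 of the mean CPM of both regions (horizontal) for the 12454 genes tested in 8 WT mice. Red and blue points are the 131 and 144 genes more than 2-fold higher and lower in hippocampus, grey points the rest, darker where called; C1ql2 and Spink8 stand high on the red side and Trbc2 low on the blue side.

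Each list of hippocampal subfield genes had more members higher in hippocampus than lower. Of 13 dentate granule cell genes tested, 7 were higher and 1 was lower (median 0.47), of 7 CA1 genes all 7 were higher (1.21), of 5 CA2 genes 4 were higher (0.94), of 6 CA3 genes 5 were higher and 1 lower (0.54), and of 7 genes of hippocampal neurons in general all 7 were higher (2.37). The median over all genes tested was -0.01, and the counts of members called, here and in the lists that follow, stand beside 14.3% higher and 13.5% lower of all genes. The region markers are members of these and later lists. C1ql2 is in the dentate and synaptic organiser lists and Spink8 in the CA1 list. Rspo1 is in the layer 4 and Wnt lists, and Myl4 in the list of cortex in general. Their calls are no independent support for those lists. In the dentate list, Dsp, a desmosomal plaque protein, had 253 counts over the 8 hippocampi and 3 over the 8 cortices, whose median cortex was at 0. Prox1, the homeobox factor that specifies granule cells, was at 16.8 to 48.5 CPM (median 24.9) in hippocampus, against 2.38 to 4.84 CPM (median 3.58) in cortex (2.85 ± 0.15, adjusted p = 3.36e-12). Lct, the lactase gene used as a granule cell marker, had 262 counts in hippocampus and 6 in cortex. Akap7, an anchor protein for protein kinase A, was the dentate gene called in the other direction (-0.40 ± 0.10, adjusted p = 0.00339).

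In CA1, Fibcd1, a fibrinogen domain receptor, was at 46.1 to 60.4 CPM (median 49.5) in hippocampus, against 1.04 to 7.26 CPM (median 3.89) in cortex. Lefty1, a secreted inhibitor of Nodal signalling, differed by 3.39 ± 0.17 (adjusted p = 2.13e-12), and Pex5l, a subunit that regulates HCN channels, by 0.80 ± 0.12 (adjusted p = 1.44e-05). The CA2 genes differed less: Amigo2, an adhesion protein, by 1.62 ± 0.17, Stard5, a sterol transfer protein, by 1.02 ± 0.17, and Rgs14, a suppressor of CA2 plasticity, by 0.94 ± 0.11. In CA3, Homer3, a postsynaptic scaffold protein, differed by 2.64 ± 0.18 and the kainate receptor subunit Grik4 by 1.23 ± 0.14. Coch, listed as a CA3 gene and known as an inner ear matrix protein, was at 1.48 to 8.28 CPM (median 2.99) in hippocampus, against 26.5 to 34.2 CPM (median 30.3) in cortex, the opposite of the list. Among the general genes, Tspan18, a tetraspanin, differed by 3.62 ± 0.21, Cabp7, a calmodulin-like protein, by 3.22 ± 0.13, and Klk8, an extracellular serine protease, by 2.61 ± 0.15.

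**Figure D3:**
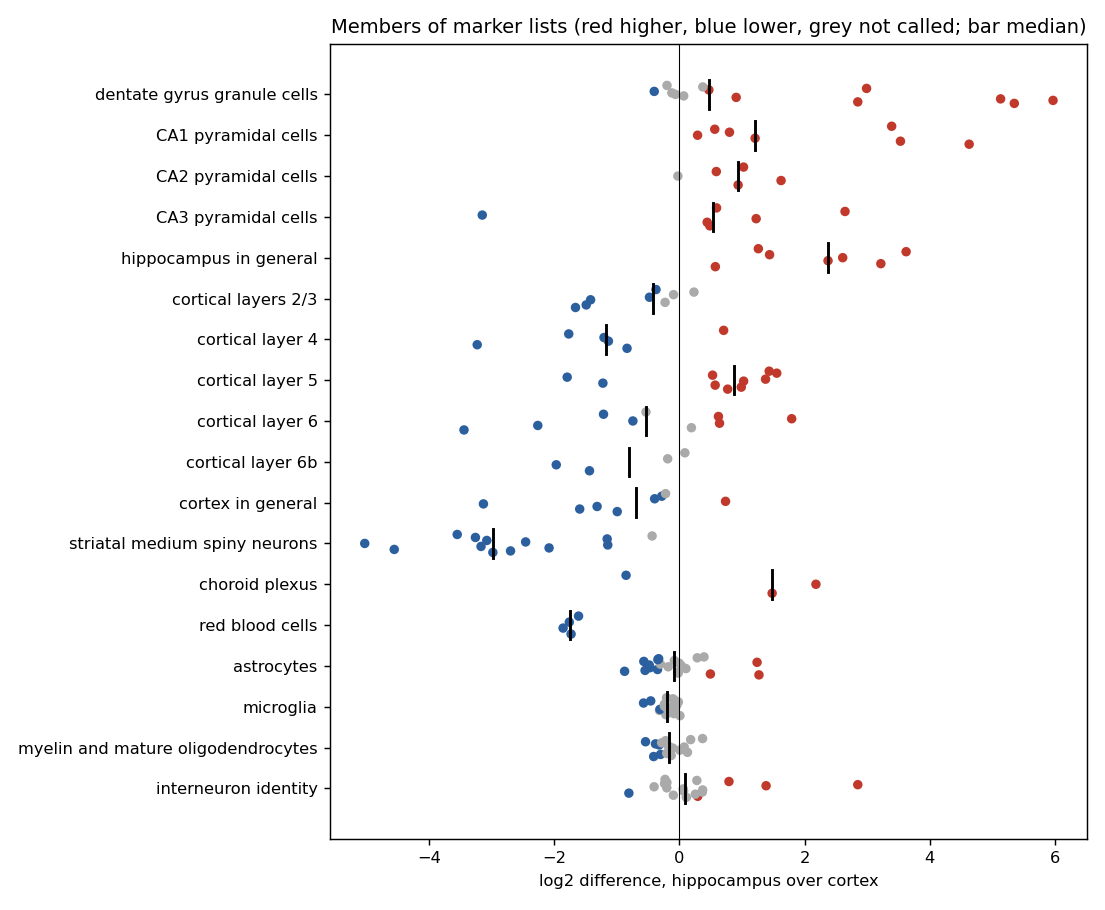
Log2 difference of hippocampus over cortex for the tested members of 18 marker lists in 8 WT mice; each point is 1 gene, coloured by its call, and the black bar is the list's median. The subfield lists lie mostly to the right, layer 4 and the striatal list to the left with medians of -1.17 and -2.98, and layer 5 to the right with 0.88.

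Cortical layer genes split by layer. Of 8 genes of layers 2/3, 5 were lower and none was higher (median -0.43), among them Cux2, a homeobox factor of upper-layer neurons (-1.66 ± 0.14, adjusted p = 6.46e-09). Without mouse 2756, 1 of these genes was higher and 6 were lower. Of 6 layer 4 genes, 5 were lower and 1 higher (-1.17): Rorb, the orphan nuclear receptor of layer 4, was at 80.5 to 135 CPM (median 99.0) in hippocampus, against 141 to 288 CPM (median 175) in cortex (-0.84 ± 0.12, adjusted p = 9.15e-06), and Hsd11b1, which regenerates active glucocorticoid, was higher (0.71 ± 0.13, adjusted p = 0.000178). Layer 5 went the other way, with 8 of 10 genes higher in hippocampus and 2 lower (median 0.88). Pou3f1, a POU factor, was at 145 to 255 CPM (median 195) in hippocampus, against 58.8 to 99.4 CPM (median 66.0) in cortex (1.43 ± 0.11, adjusted p = 1.96e-09), and Bcl11b, the zinc finger factor Ctip2 of corticospinal and of hippocampal neurons, was at 202 to 306 CPM (median 267), against 108 to 190 CPM (median 123) in cortex. The 2 exceptions were Deptor, an inhibitor of mTOR (-1.22 ± 0.12), and Qrfpr, a neuropeptide receptor (-1.79 ± 0.25).

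Layer 6 genes moved both ways, with 3 of 9 higher and 4 lower (median -0.53). Nxph3, 1 of the 3 higher, lost its call with DESeq2, with no mouse block and without any 1 of replicates 1, 2 and 9. Foxp2, a forkhead factor of corticothalamic neurons, was at 0.495 to 2.39 CPM (median 0.914) in hippocampus, against 10.5 to 16.1 CPM (median 13.6) in cortex (-3.44 ± 0.22, adjusted p = 9.53e-11). Crym, a thyroid hormone-binding protein, was at 150 to 229 CPM (median 217), against 54.8 to 65.6 CPM (median 61.8) in cortex (1.79 ± 0.09, adjusted p = 2.1e-12), the opposite direction. Of 4 genes of layer 6b, 2 were lower, Cplx3 and Ccn2. Of 8 genes of cortex in general, 6 were lower and 1, Lmo3, was higher (0.74 ± 0.09, adjusted p = 3.16e-06). Mef2c, an activity-regulated MADS factor, was at 153 to 218 CPM (median 180), against 421 to 736 CPM (median 553) in cortex, and Tbr1, a T-box factor of deep layers, differed by -1.31 ± 0.11.

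Genes of other tissues also moved with region. Of 13 genes of striatal medium spiny neurons tested, 12 were lower in hippocampus and none was higher (median -2.98), and the summed level of the list's 18 members was 119 to 148 CPM in hippocampus, against 590 to 934 CPM in cortex. Penk, the enkephalin precursor, was at 12.6 to 24.3 CPM (median 16.7), against 122 to 209 CPM (median 156) in cortex (-3.17 ± 0.13, adjusted p = 4.14e-14). Drd1, the D1 dopamine receptor, differed by -2.98 ± 0.20, Ppp1r1b, the phosphatase inhibitor DARPP-32, by -2.70 ± 0.12, and Scn4b, a sodium channel beta subunit, by -3.26 ± 0.19. Several of these genes are used by cortical neurons as well, and the share of striatal tissue in the cortex wells was not tested.

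Of the lists for tissue around the brain, 4 of 4 red blood cell genes tested were lower in hippocampus (median -1.74), with summed levels of 46.1 to 376 CPM, against 111 to 1061 CPM in cortex, and the ranges overlap. With no mouse block the calls of Hba-a1 (adjusted p = 0.0534) and Hbb-bt (adjusted p = 0.0664) were lost. The globin genes are near copies of each other, so counts of single members are uncertain. Of 7 meningeal fibroblast genes, 4 were lower and 1 higher: Ptgds, the prostaglandin D synthase of the meninges and of oligodendrocytes, was at 804 to 2871 CPM (median 1281), against 3234 to 4315 CPM (median 3682) in cortex, while Dcn, the proteoglycan decorin, was higher in hippocampus (1.94 ± 0.11, adjusted p = 1.17e-11). Of 3 choroid plexus genes tested 2 were higher, Sostdc1 and Ttr, and 1 lower, Enpp2. Ttr, the transthyretin gene, ranged from 28.1 to 249 CPM in hippocampus, against 8.66 to 113 CPM in cortex (1.48 ± 0.35, adjusted p = 0.0147), and its call was lost with no mouse block (adjusted p = 0.0854) and with all mice in 1 fit (adjusted p = 0.266). Of 4 ependymal genes tested, 3 were higher, Tmem212, Ccdc153 and Rsph1, with summed levels of 26.3 to 60.3 CPM, against 16.4 to 25.1 CPM in cortex. Of 8 thalamic genes, 1 was higher and 1 was lower.

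**Figure D4:**
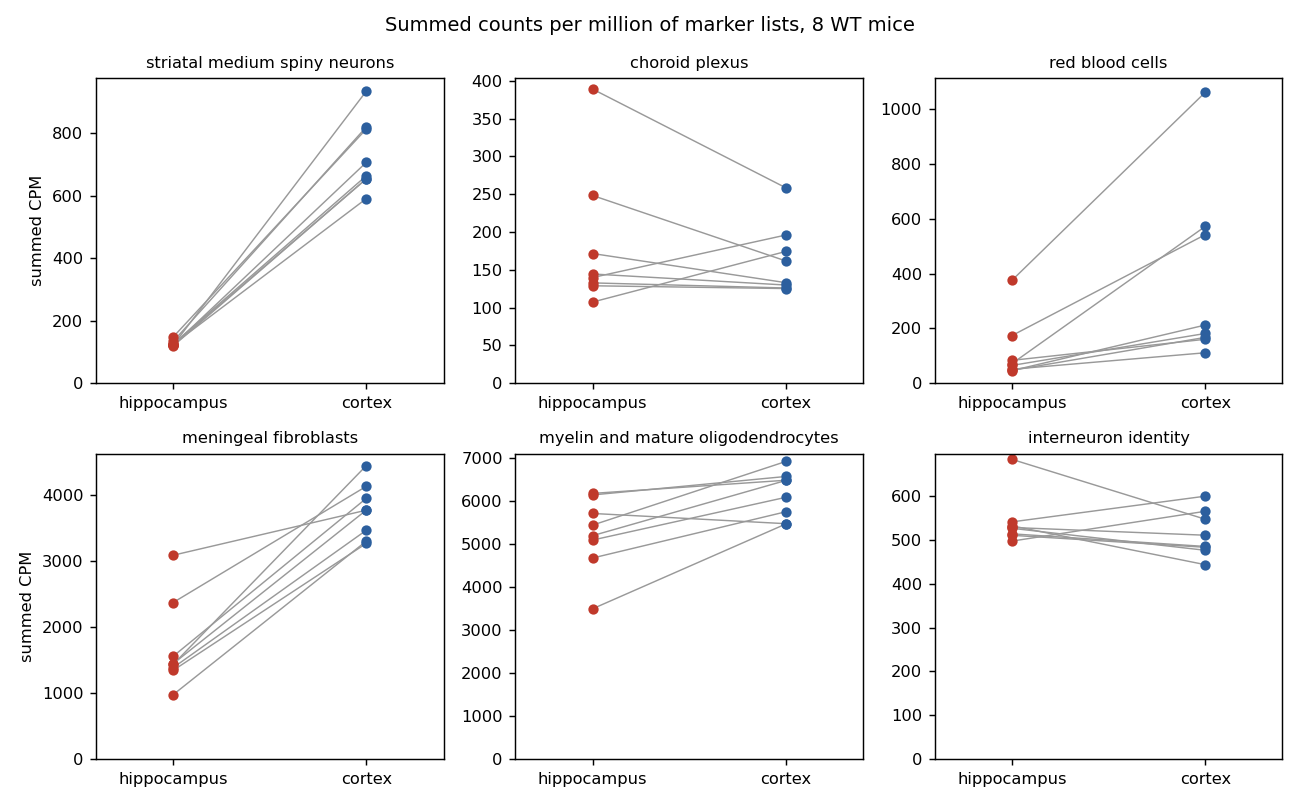
Summed CPM of 6 marker lists in hippocampus (left, red) and cortex (right, blue), one line per WT mouse. The striatal list is at 119 to 148 CPM in hippocampus and at 590 to 934 CPM in cortex, whereas the choroid plexus and red blood cell sums overlap between regions. For hippocampus and then cortex, Enpp2 had medians of 66.1 and 125 CPM, beside median choroid plexus sums of 142 and 147 CPM. Ttr and Sostdc1 moved the other way. Ptgds had medians of 1299 and 3690 CPM, beside median meningeal sums of 1436 and 3766 CPM. Single genes thus take much of both sums. These CPM use library totals.

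Transcription factors of the dorsal forebrain were higher in hippocampus more often than lower: 19 of 29 rose against cortex and 6 fell (median 0.53), beside 14.3% and 13.5% of all genes. Lmo1, a LIM-only cofactor, was at 70.4 to 93.5 CPM (median 82.7) in hippocampus, against 12.6 to 20.8 CPM (median 17.2) in cortex (2.28 ± 0.11, adjusted p = 9.56e-13). Lhx9, a LIM homeobox factor, had 288 counts over the 8 hippocampi and 7 over the 8 cortices. Bhlhe22 (1.89 ± 0.13) and Neurod6 (1.57 ± 0.12) are basic helix-loop-helix factors of glutamatergic neurons, and the hippocampus of mouse 2756 gave the lowest difference of Neurod6, 0.63, against 1.5 to 1.95 in the other 7 mice. Lower were Meis2, a TALE homeobox factor (-1.23 ± 0.10), Pou3f2 (-1.03 ± 0.12), Id2, an inhibitor of helix-loop-helix factors (-0.78 ± 0.10), and Etv5 (-0.66 ± 0.12). Of 11 adult neurogenesis genes tested, 6 were higher and 3 lower. Dcx, the microtubule protein of immature neurons, was lower (-0.90 ± 0.17, adjusted p = 0.000304), and Stmn1, a microtubule destabiliser, too (-1.33 ± 0.09), while Calb2 (calretinin) and Hopx were higher.

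Glutamate receptors differed by subunit. Of 19 AMPA and kainate receptor genes, including their auxiliary proteins, 7 were higher and 4 lower (median -0.02), and of 13 NMDA and metabotropic genes 5 were higher and 3 lower. Among the lower genes, Neto2 and Gria4 lost their calls with no mouse block (adjusted p = 0.0883 and 0.223) and without several single mice. Grm8 lost its call without any 1 of replicates 2, 3, 4, 5 and 7. Gria1, the AMPA receptor subunit GluA1, was at 198 to 434 CPM (median 286) in hippocampus, against 84.7 to 116 CPM (median 87.4) in cortex (1.67 ± 0.09, adjusted p = 8.77e-12). The auxiliary subunits Shisa6 (3.53 ± 0.22), Cacng8 (1.61 ± 0.15) and Cnih2 (1.0 ± 0.10) were higher too, and Cacng3 was lower (-0.95 ± 0.11, adjusted p = 1.03e-06). The NMDA subunits Grin2a (1.31 ± 0.11) and Grin2b (0.83 ± 0.11) and the metabotropic receptor Grm5 (0.80 ± 0.11) were higher, and Grm3, a receptor coupled to inhibitory G proteins, was lower (-0.92 ± 0.13, adjusted p = 1.02e-05). Of 14 GABA receptor genes, 4 were higher and 4 lower. Gabra5, the alpha-5 subunit of extrasynaptic receptors, was at 174 to 204 CPM (median 184), against 43.7 to 59.2 CPM (median 53.0) in cortex (1.82 ± 0.10, adjusted p = 2.99e-12). Gabra2 and Gabrb1 were also higher. Gabrd, the delta subunit, was at 12.9 to 26.5 CPM (median 17.9), against 53.0 to 73.2 CPM (median 57.8) in cortex (-1.65 ± 0.12, adjusted p = 7.75e-10), and Gabra3 fell by 0.59 on the log2 scale against cortex, a call lost with no mouse block (adjusted p = 0.120).

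Ion channel genes were divided. Of 40 potassium channel genes, voltage-gated and of other kinds and including auxiliary proteins, 11 were higher and 14 lower (median -0.13). These are 27.5% and 35% of them, beside 14.3% and 13.5% of all genes. Of 25 sodium, calcium and HCN genes, 7 were higher and 6 lower (28% and 24%). Scn3b, a sodium channel beta subunit, was at 72.7 to 132 CPM (median 107) in hippocampus, against 29.1 to 44.5 CPM (median 33.6) in cortex (1.6 ± 0.10, adjusted p = 4.17e-11). Kcnt1, a sodium-activated potassium channel, was lower (-1.54 ± 0.15, adjusted p = 5.05e-08), as were Kcnv1 (-1.24 ± 0.12), a silent subunit, and Kcnh3 (-0.89 ± 0.09), an ether-a-go-go channel. Of 23 calcium-binding proteins and calmodulin kinases, 8 were higher and 7 lower. Hpca, hippocalcin, a neuronal calcium sensor, was at 1189 to 1737 CPM (median 1378), against 428 to 828 CPM (median 551) in cortex (1.26 ± 0.12, adjusted p = 5.3e-08), while Necab3 (-1.6 ± 0.12) and Cabp1 (-1.03 ± 0.10) were lower.

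Receptors of neuromodulators and neuropeptides were divided too. Of 20 serotonin, dopamine, noradrenaline and acetylcholine receptor genes tested, 6 were higher and 8 lower. Of 20 genes of neuropeptide receptors, neuropeptides and other neuronal factors such as Bdnf, 7 were higher and 7 lower. Drd5, the D5 dopamine receptor, had 222 counts in hippocampus and 11 in cortex, and Htr5b (1.91 ± 0.24) and Htr1a (1.3 ± 0.19), receptors of serotonin, were higher. Lower were the D1 and D2 receptors of the striatal list, and Adra1b, an alpha-1 adrenoceptor (-2.59 ± 0.20, adjusted p = 1.49e-09). Npy2r, a presynaptic receptor of neuropeptide Y, was at 15.8 to 27.1 CPM (median 21.5) in hippocampus, against 0.272 to 1.59 CPM (median 1.12) in cortex (4.34 ± 0.20, adjusted p = 5.63e-13), with 28 counts over the 8 cortices. Cckbr, the cholecystokinin B receptor, was at 4.95 to 17.7 CPM (median 7.90), against 29.6 to 69.5 CPM (median 46.3) in cortex (-2.48 ± 0.13, adjusted p = 4.1e-12). Bdnf, the neurotrophin, was higher (0.89 ± 0.11, adjusted p = 2.57e-06), and Sstr2 was lower (-1.56 ± 0.20).

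Of 14 steroid and thyroid hormone receptor genes and regulators, 5 were higher and 6 lower. Nr3c2, the mineralocorticoid receptor, was at 24.0 to 49.0 CPM (median 30.4) in hippocampus, against 4.99 to 7.07 CPM (median 5.97) in cortex (2.37 ± 0.13, adjusted p = 8.48e-12). Fkbp5, a glucocorticoid-induced co-chaperone, was higher by 0.92 ± 0.11, and Rxrg, a retinoid X receptor, fell by 2.21 on the log2 scale. Immediate early genes, which neurons switch on with activity, were lower more often: 16 of 28 fell against cortex and 6 rose (median -0.43), or 17 and 6 without mouse 2756. These are 57.1% and 21.4% of the list, beside 13.5% lower and 14.3% higher of all genes. Egr1 was at 42.1 to 72.5 CPM (median 51.0), against 101 to 188 CPM (median 177) in cortex (-1.52 ± 0.12, adjusted p = 1.51e-09), Arc at -1.32 ± 0.12 and Fos at -1.25 ± 0.12. Jun, by contrast, was at 49.1 to 85.1 CPM (median 56.7), against 12.5 to 28.6 CPM (median 22.9) in cortex (1.4 ± 0.13, adjusted p = 1.47e-08), and Nr4a3 was higher by 1.26 ± 0.19.

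Genes of axon guidance and cell adhesion included 14 of 31 semaphorin, plexin, ephrin and Eph genes higher and 6 lower (median 0.16, or 0.05 without mouse 2756). Nrp1 (2.03 ± 0.11) and Nrp2 (1.74 ± 0.16), co-receptors of semaphorins, and the Eph receptor Epha7 (1.44 ± 0.11) were higher. Sema3a, a repulsive ligand, was at 0.400 to 5.94 CPM (median 2.03) in hippocampus, against 6.54 to 14.6 CPM (median 10.1) in cortex (-2.48 ± 0.28, adjusted p = 4.93e-07), and Efna5, an ephrin, fell by 1.57 on the log2 scale. Of 20 cadherins and protocadherins, 7 were higher and 8 lower, led by Pcdh20 (3.08 ± 0.15) and by Pcdh7 (-1.13 ± 0.10). Of 29 synaptic organisers 8 were higher and 5 lower, with Lrrtm1, a postsynaptic partner of neurexins, at 1.14 ± 0.10, and its relative Lrrtm3 at -1.04 ± 0.11. Without mouse 2756, 8 organisers were higher and 8 lower. Of 33 vesicle and release genes, 6 were higher and 10 lower (6 and 14 without mouse 2756), among them Doc2b (2.27 ± 0.25), a calcium sensor of release, and Stx1a (-1.65 ± 0.10), a syntaxin.

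Of 24 Wnt and BMP genes tested, 6 were higher and 8 lower. Dkkl1, a Dickkopf-like protein, was at 0.922 to 3.60 CPM (median 2.13) in hippocampus, against 37.9 to 44.0 CPM (median 41.2) in cortex (-4.11 ± 0.17, adjusted p = 5.26e-14). Of 22 cyclases and phosphodiesterases with their kinases and anchors, 2 were higher and 11 lower (median -0.32), among them Pde1b (-1.22 ± 0.11) and Adcy5 (-1.15 ± 0.11), both also genes of the striatum, and Pde10a of the striatal list. Prkaca, 1 of the 2 higher, lost its call with no mouse block (adjusted p = 0.0749) and without any 1 of replicates 1, 3, 4, 5 and 7. Of 20 NAD metabolism genes, 4 were higher and none was lower (median 0.06), and without mouse 2756 5 were higher and 1 was lower (median -5.36e-05). Among the 4 was Cd38, the NAD-consuming surface enzyme that the study targets: it was at 4.97 to 13.7 CPM (median 7.46) in hippocampus, against 1.04 to 4.11 CPM (median 1.85) in cortex (1.76 ± 0.20, adjusted p = 4.51e-07), higher in 8 of 8 mice. In FAD mice its difference was 0.99 ± 0.14, and the test of FAD against WT did not pass (adjusted p = 0.179). Parp1 (1.10 ± 0.14), Sarm1 (0.76 ± 0.12) and Nmnat2 (0.39 ± 0.10) were the others, and the call of Nmnat2 was lost with no mouse block (adjusted p = 0.258).

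The lists of astrocytes, myelin, oligodendrocyte precursors and microglia had medians of -0.19 to 0.25. Of 21 astrocyte genes 3 were higher and 8 lower (median -0.08, or -0.13 without mouse 2756): Gfap, the intermediate filament, was at 59.8 to 75.1 CPM (median 66.6) in hippocampus, against 19.1 to 36.1 CPM (median 28.4) in cortex (1.27 ± 0.11, adjusted p = 8.45e-09), Agt, angiotensinogen, was higher by 1.24 ± 0.13, and Aldh1l1, a folate enzyme, was lower (-0.88 ± 0.10). Of 18 myelin genes 5 were lower, Mbp among them (-0.41 ± 0.13, adjusted p = 0.0182), a call that was lost without any 1 of replicates 1, 3, 6 and 7. Of 12 oligodendrocyte precursor genes, 1 was called, Tnr (0.42 ± 0.16, adjusted p = 0.0499), and that call was lost in 10 of 16 alternatives. Without mouse 2756 none of the precursor genes was called by edgeR, and their median was 0.09 over 10 genes tested, in place of 0.25 over 12. Of 18 microglia genes 3 were lower, Aif1, C1qb and Cd68, and none was higher. This is 16.7%, beside 13.5% of all genes, and 4 were lower without mouse 2756. The summed level of the microglia list was 2910 CPM in the hippocampus of mouse 2756, against 5994 to 8509 CPM in the other 7 hippocampi and 5680 to 8776 CPM in the 8 cortices. The calls of Aif1 and C1qb were lost without replicate 1 (adjusted p = 0.0543 and 0.0643). That of Cd68 was lost with DESeq2, with no mouse block and without any 1 of replicates 1, 3, 6 and 7 (adjusted p of 0.0541 to 0.104). Endothelial and mural genes gave 1 higher and 4 lower of 10, with Ly6c1 lower (-0.46 ± 0.10, adjusted p = 0.00109). Of the others, Vtn lost its call in 7 and Abcb1a in 12 of 16 alternatives.

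Interneuron genes were mixed. Of 18 identity genes, 4 were higher and 1 lower (median 0.09), and 1 of the 4 was Prox1, which granule cells also express. Pvalb, the parvalbumin of fast-spiking basket cells, was at 46.5 to 103 CPM (median 87.4) in hippocampus, against 134 to 165 CPM (median 144) in cortex (-0.81 ± 0.10, adjusted p = 2.45e-06), and Adarb2 was higher by 1.38 ± 0.20. Of 13 genes listed for interneuron neuropeptides, 3 were higher and 7 lower. The 3 higher were Nos1, the neuronal nitric oxide synthase (1.71 ± 0.15), Calb2 and Crhbp, and none of them is a neuropeptide. Among the 7 lower were Penk and Tac1, which are also in the striatal list, Vip (-1.36 ± 0.13) and Crh (-1.63 ± 0.18). The synthesis enzyme Gad2 was called (0.29 ± 0.11, adjusted p = 0.0467), and lost its call in 10 of 16 alternatives.

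Genes of mitochondria and ribosomes stand beside the library measures. Mitochondrially encoded protein genes took 5.69% ± 0.78 (SD, n = 8) of counts in hippocampus and 7.39% ± 0.78 (n = 8) in cortex, lower in 7 of 8 mice (exact sign-flip permutation test, two-sided p = 0.0156, adjusted p = 0.0625 over 4 library measures), so the difference did not pass after adjustment. Singly, 8 of 11 such genes were lower and none was higher (median -0.40). The calls of mt-Atp8, mt-Atp6, mt-Co2 and mt-Cytb, the 4 of smallest p, were each lost with no mouse block (adjusted p of 0.0770 to 0.256). That of mt-Cytb was also lost without any 1 of replicates 1, 3, 4 and 7, that of mt-Co2 without 4 or 7, that of mt-Atp6 without 4, and that of mt-Atp8 with all mice in 1 fit. Of 37 nuclear genes of the respiratory chain 7 were lower, and of 39 cytosolic ribosomal protein genes none was called by edgeR (Rps18 at -0.28 ± 0.13, adjusted p = 0.125). Without mouse 2756 the mitochondrial count was 9 lower, the nuclear one 9 and the ribosomal one 1 higher. Of the nuclear genes, Cox7a2, Ndufs4 and Ndufa9 lost their calls without any 1 of replicates 1, 3, 4 and 7. The ribosomal RNA share was 9.42% ± 9.19 in hippocampus and 6.73% ± 1.58 in cortex (exact two-sided p = 0.680), and totals and genes detected did not pass either.

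Among the other genes of the largest differences, Trbc2, the constant region of the T cell receptor beta chain, was at 1.0 to 3.59 CPM (median 1.84) in hippocampus, against 49.5 to 64.8 CPM (median 56.1) in cortex (-4.81 ± 0.16, adjusted p = 5.83e-15). Of T cell genes, chosen after their values were seen, Cd3e had 3 counts over the 8 hippocampi and 1 over the 8 cortices, and Cd3d 3 and 6. Cd3g had 6 counts in hippocampus and 2 in cortex, and Cd8a 2 and 1. Trac, the constant region of the alpha chain, had 44 counts in hippocampus and 13 in cortex, and Lck, a kinase of T cell receptor signalling, 42 and 21, the opposite direction to Trbc2. Trbc1 had 4 counts in hippocampus and 19 in cortex, and Cd4, the co-receptor of helper T cells, 4 and 204 (adjusted p = 1.31e-10). Gm26917, a transcript counted here with the ribosomal RNA-like genes whose reads may be shared with ribosomal repeats, was at 4784 to 40895 CPM (median 10216) in hippocampus, against 587 to 2220 CPM (median 826) in cortex, so its value is uncertain. Also higher were Vwa3b and Pkp2, a plakophilin of desmosomes (3.15 ± 0.19). Also lower were Rasgef1c, a guanine exchange factor for Ras (-3.63 ± 0.19), Tnnc1, troponin C (-3.57 ± 0.18), Atp6ap1l, Gpr6, an orphan receptor of the striatum, and A830009L08Rik, which the annotation names only by clone. The 30 genes of largest difference kept their calls in each of 16 alternatives, or of 15 for Gm26917, which 1 alternative leaves out.

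The same difference was then set beside that of the 15 FAD mice, in which 4830 of 12327 genes (39.2%) were called. Some FAD wells also had high shares of ribosomal RNA and like genes. The share was 25.0% in the hippocampus of mouse 2632 (1428454 counts) and 15.2% in the cortex of mouse 2771 (1270918 counts). In mouse 2770 it was 19.3% in hippocampus and 16.7% in cortex. The part of these wells in the FAD results was not tested. Of 12065 genes tested in both, 3369 were called in WT mice and 4748 in FAD mice, and 2480 were called in both in the same direction, which is 73.6% of the WT calls and 52.2% of the FAD calls. Another 12 had opposite directions. Of 240 genes more than 2-fold apart in WT mice and tested in both, 238 were called in FAD mice in the same direction. The rest of the 131 higher and 144 lower genes beyond 2-fold in WT mice were not tested in FAD mice. The difference between regions itself differed between FAD and WT mice for 36 of 13358 genes (0.27%), 28 with a higher and 8 with a lower value in FAD mice. Endou, an endoribonuclease, was at 13.4 ± 3.69 CPM in hippocampus and 12.4 ± 2.34 CPM in cortex of FAD mice (SD, n = 15), and at 1.96 ± 0.60 CPM and 8.54 ± 2.38 CPM in WT mice (n = 8), a difference of 2.13 ± 0.22 (adjusted p = 1.33e-07). S100a6, a calcium-binding protein, differed by 1.26 ± 0.15 (adjusted p = 1.12e-06), and Serpina3n, a serpin of reactive astrocytes, by -1.15 ± 0.19 (adjusted p = 0.000715). Drd1 and Penk of the striatal list had FAD differences of -1.38 and -2.01 and WT differences of -2.98 and -3.17, and the test of FAD against WT did not pass for either (adjusted p = 0.179 and 0.247).

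**Figure D5:**
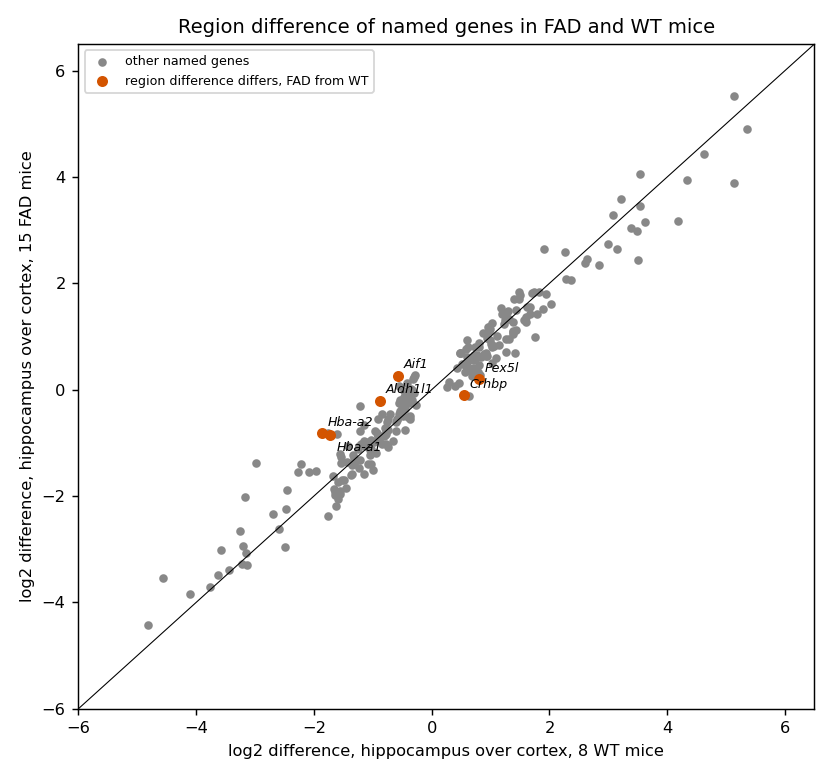
Log2 difference of hippocampus over cortex in 15 FAD mice (vertical) against 8 WT mice (horizontal) for the named genes tested in both; the line marks equal values. Orange points are genes of that set whose region difference differed between FAD and WT mice at an adjusted p under 0.05. Most other points lie close to the line, from Trbc2 at the lower left to C1ql2 at the upper right. Genes named only for the test of FAD against WT, such as Endou, S100a6 and Serpina3n, are not drawn.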

How the data were processed

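The table the authors deposited holds raw counts, as whole numbers, with a row per gene symbol and a column per well. The submitters' processing notes name STAR 2.5.3a and bcl2fastq 2.17. Genome build, counting program, use of strand and treatment of molecular identifiers: not given in the sources used here. Overlapping, antisense and near-identical genes are therefore uncertain. RNA was purified by chloroform extraction, per the labels. Each deposited sample is a pool of mice. Mouse, genotype, region and injection were read from the column names, and each mouse was tied to its pool by the mouse numbers in the titles. For 1 FAD mouse the deposited sample sheet and the column names name different injections. It was kept in the main comparison of FAD with WT, where only genotype is used, and left out of the alternative with only FAD mice given IgG.

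Genes were kept by filterByExpr (at least 10 counts, total at least 15), scaled by TMM and tested two-sided by the quasi-likelihood method of edgeR 4.0.16 (R 4.3.3), robustly fitted, with the mouse as a block, and called at a Benjamini-Hochberg adjusted p under 0.05 over all genes tested. A change beyond 2-fold was tested with glmTreat, and the difference between FAD and WT mice as the interaction of region with genotype. SE is the log2 difference over the square root of F. CPM uses TMM-scaled totals in per-gene values, and library totals in summed lists. The pairing follows the mouse number that starts each column name. In 8 of 8 mice the deviations of a well correlated best with the other region of the same mouse (0.0903 to 0.402). Both wells of a mouse also share a library pool. Only mice 2601 and 2756 are in a pool with another WT pair, so for the others animal and pool cannot be told apart. The lowest chi-square per degree of freedom between wells of 1 region was 2.55 over 56 pairs, so none was counted as a repeat. Each p-value measures the spread over mice. Library measures were compared by exact sign-flip tests, whose smallest two-sided p is 0.0078125.

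The members and lists were chosen with earlier results of these data known. Of 815 genes in 47 lists 791 were in the table, and the others were not analysed here. Named genes were the 4 region markers, the 15 of largest difference in each direction that were called, had 1 sign in all 8 mice and at least 10 CPM in the higher region, up to 4 members of smallest p per list and direction (2 where none was called), and the 10 of smallest p for the difference between FAD and WT mice. Some named genes are not reported here. The code was tested on simulated counts. Alternatives were DESeq2 1.42.0, RLE factors, no filter, a mean of at least 10 counts, no mouse block, voom (limma 3.58.1) with quality weights, mitochondrial and ribosomal RNA genes left out, all mice in 1 fit, and each WT mouse left out. The gene list counts without mouse 2756 were added after seeing the data.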

Additional observations from a re-analysis of the deposited data

Results flagged for a closer look

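In 250 groups of 8 values (the log2 difference of hippocampus over cortex of each named gene over 8 mice, and 4 library measures in each region), 31 had 1 value far from the others by Dixon's criterion, which chance meets in about 1 of 20 groups. Of these, 24 were values of WT mouse 2756, whose hippocampus had 32.1% ribosomal RNA and like genes, against at most 7.27% in the other 7 hippocampi. The part of this share in the values below was not tested.

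In mouse 2756 the log2 difference was above those of the other 7 mice for Nr3c2 2.97 (others 1.91 to 2.39), Pkp2 4.16 (others 2.15 to 3.09), Egr1 -0.60 (others -1.89 to -1.30), Pde10a -0.26 (others -1.51 to -0.98) and Rgs14 1.62 (others 0.59 to 1.07). It was also above them for Pex5l 1.68 (others 0.20 to 0.88), Nr4a3 3.30 (others 0.72 to 1.42), Kcnh5 0.0861 (others -2.23 to -1.24) and Nptx1 2.02 (others 0.37 to 0.75). Above them too were Neto2 0.58 (others -0.73 to -0.21) and Tnr 1.51 (others -0.15 to 0.63). The difference was below those of the other mice for Crym 1.35 (others 1.76 to 2.02), Tac1 -4.64 (others -2.62 to -1.82), Neurod6 0.63 (others 1.5 to 1.95), Pvalb -1.53 (others -0.90 to -0.44) and Qrfpr -2.84 (others -1.76 to -1.16). Below them too were those of Necab2 -0.00996 (others 0.48 to 0.91), Htr3a -0.84 (others 0.40 to 1.28), Ndufa1 -1.34 (others -0.48 to 0.00), Aif1 -2.47 (others -1.03 to 0.27) and mt-Co2 -1.80 (others -0.54 to 0.12). Further below were mt-Cytb -1.73 (others -0.59 to 0.10) and Rps18 -1.26 (others -0.45 to 0.25). In mouse 2592 the values that stood apart were Gria1 1.21 (others 1.63 to 1.90), Slitrk3 0.14 (others 0.75 to 1.19), Syn2 -0.16 (others 0.66 to 1.34) and Flrt3 -0.40 (others 0.40 to 0.84). In mouse 2617 they were Cacng8 2.65 (others 1.11 to 1.74) and Wnt5a -0.24 (others 0.58 to 1.09). In mouse 2599 it was Hba-a1 -3.18 (others -1.85 to -1.0). 

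For 15 named genes the difference between regions itself differed between FAD and WT mice by edgeR's quasi-likelihood test of the interaction. As log2 values of FAD minus WT, it was higher in FAD mice for Endou 2.13, S100a6 1.26, Lgals1 0.86, Ighm 0.96, H2-T23 0.95, Cd52 1.14, Abhd11os 1.5, Spp1 1.06, Hba-a2 1.04, Hba-a1 0.88, Aldh1l1 0.67 and Aif1 0.84. It was lower in FAD mice for Serpina3n -1.15, Pex5l -0.60 and Crhbp -0.66. Genotype and injection differ together in this test, and the globin genes share near-identical sequence.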

How the results depend on the processing

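The counts of genes higher and lower in hippocampus stayed within 1.5 times under every alternative run: 1467 and 1456 with DESeq2, 1766 and 1686 with RLE factors, 2064 and 1995 with no filter, 1774 and 1660 with a mean of at least 10 counts, 2343 and 2221 with voom, 2027 and 1489 without mitochondrial and ribosomal RNA genes, and 1991 and 1800 with all mice in 1 fit. Without the replicate block by mouse they were 1309 and 1255. With 1 mouse left out, they ran from 1392 to 2070 and from 1325 to 1926, and the counts beyond 2-fold from 119 to 141 and from 119 to 154.

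The counts for the difference between FAD and WT mice, 28 and 8, were less stable. They were 58 and 29 with DESeq2, 32 and 5 with a mean of at least 10 counts, and 13 and 3 with only the FAD mice given IgG. That last setting also left out the FAD mouse whose injection labels differ. It rests on fewer FAD mice, so injection and sample size cannot be told apart in it. Leaving out 1 WT mouse gave 18 to 74 higher and 3 to 34 lower, with 74 and 34 without WT replicate 2 (mouse 2592) and 18 and 4 without replicate 1, and the cause was not tested. The mean difference in ribosomal RNA share, 2.69 percentage points, was -0.21 without WT replicate 9 (mouse 2756). No named gene changed direction. List medians were run with RLE factors, a mean of at least 10 counts, and mitochondrial and ribosomal RNA genes left out: 2 of 47 moved by 0.1 or more, both with a mean of at least 10 counts, dentate gyrus to 0.69 and choroid plexus to 0.31. Each median was taken over the members that pass the filter of its setting. A moved median can therefore come from a change of members and need not be a change in the values of genes. Without mouse 2756, 6 of 47 medians moved by 0.1 or more, the most for layer 5, to 0.69 over 9 genes tested beside 0.88 over 10 with it. In some lists the members tested thus differ as well. Depth limits genes of low level most: at a total of 2078974 counts, the smallest of the 16 WT wells, a gene of 1 CPM has about 2 counts.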
